A study of Mus musculus with 36 samples.

Results

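The genes described here encode the proteins that build and remodel plasma lipoproteins in liver: the apolipoproteins Apoa1, Apoa2, Apoa4, Apoa5, Apob, Apoc1, Apoc3 and Apoe, the lipid loading protein Mttp and the plasma enzyme Lcat. They were chosen by name, as the rows of the expression tables that carry these symbols, which gave 10 genes of 24066 symbols. All 10 passed the filter on low values (an average of 0.1 FPKM or more) that left 13215 genes for testing. The study exposed mice to intermittent hypoxia (IH), a model of the oxygen drops of sleep apnea, and profiled polyadenylated liver RNA around the clock. IH consisted of 60 cycles per hour between 5% and 21% inspired oxygen, given every day from Zeitgeber time (ZT, hours after lights on) 0 to 8 for 4 weeks, while controls breathed air in cycles of the same timing. All mice were wild-type males of strain C57BL/6JRj, 16 weeks old, caged in groups of 5 with free access to food on the sampling day. Livers of 3 mice per condition were taken at ZT0, 4, 8, 12, 16 and 20, which gave 18 control and 18 IH libraries, 1 per mouse. ZT4 and ZT8 are thus the time points during and at the end of the daily hypoxia, and ZT0 is its onset.

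Lipoproteins carry lipid through plasma as a core of triglyceride and cholesteryl ester under a coat of phospholipid and apolipoproteins. Hepatocytes build very low density lipoprotein (VLDL) around a single molecule of apolipoprotein B, which is loaded with lipid in the endoplasmic reticulum by the microsomal triglyceride transfer protein, Mttp. They also secrete apolipoproteins A-I and A-II, the structural proteins of high density lipoprotein (HDL), on which Lcat esterifies cholesterol. Apolipoproteins A-V and C-III act on plasma triglyceride in opposite directions, through lipoprotein lipase, and apolipoprotein E is a ligand for the receptors that clear remnant particles.

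Of the members, 6 lie in 2 clusters of the mm10 genome. Apoa1 (chr9:46228580-46230466), Apoc3 (chr9:46232933-46235636), Apoa4 (chr9:46240696-46243459) and Apoa5 (chr9:46268633-46271919) fall within 43.3 kb, Apoc3 on the minus strand and the other three on the plus strand. Apoe (chr7:19696109-19699188) and Apoc1 (chr7:19689481-19692660) lie on the minus strand of chromosome 7 in a cluster of 27.6 kb with Apoc4 and Apoc2. The others stand alone: Apoa2 at chr1:171225054-171226379 (plus strand), Apob at chr12:7977648-8016835 (plus strand), Mttp at chr3:138089854-138144968 (minus strand) and Lcat at chr8:105939551-105943382 (minus strand). Their longest coding transcripts ran from 518 nt in 4 exons for Apoa2 to 13934 nt in 29 exons for Apob. Apoa4, Apoa5, Mttp and Lcat overlap annotated genes on the opposite strand. The libraries were strand-specific, but whether the counting used the strand is not given in the sources used here, so for these 4 genes reads of the partner cannot be told apart.

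The 250 bases before the start site are shown for Apoa1, Mttp and Lcat, the members with a called rhythm below, and for Apob, whose difference at ZT4 and ZT8 had the opposite sign to that of most others. They are RefSeq windows of assembly GRCm38.p6, read 5′ to 3′ on the strand of the gene. Capitals mark matches, on either strand, to any of 5 motifs: CAAAG (core of HNF4 sites), AGGTCA (part of a nuclear receptor binding site), TGACG (part of a CREB binding site), CACGTG (E-box) and ACGTG (core of the hypoxia response element, contained in CACGTG).
Apoa1, chr9:46228380-46228629, plus strand: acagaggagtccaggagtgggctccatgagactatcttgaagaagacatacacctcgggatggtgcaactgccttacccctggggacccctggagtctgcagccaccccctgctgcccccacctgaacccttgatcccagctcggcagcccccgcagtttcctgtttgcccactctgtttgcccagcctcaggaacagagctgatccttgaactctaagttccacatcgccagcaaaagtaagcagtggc
Apob, chr12:7977427-7977676, plus strand: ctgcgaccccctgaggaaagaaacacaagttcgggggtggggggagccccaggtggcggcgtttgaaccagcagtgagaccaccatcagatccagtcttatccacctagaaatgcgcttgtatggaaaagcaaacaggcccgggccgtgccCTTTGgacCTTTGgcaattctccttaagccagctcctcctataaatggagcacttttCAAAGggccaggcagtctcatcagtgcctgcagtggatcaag
Mttp, chr3:138143419-138143668, minus strand: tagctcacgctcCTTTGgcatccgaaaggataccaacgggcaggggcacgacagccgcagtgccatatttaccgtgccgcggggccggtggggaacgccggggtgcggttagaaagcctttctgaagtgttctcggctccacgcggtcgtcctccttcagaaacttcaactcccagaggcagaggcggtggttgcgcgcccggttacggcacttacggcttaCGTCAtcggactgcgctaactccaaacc
Lcat, chr8:105943403-105943652, minus strand: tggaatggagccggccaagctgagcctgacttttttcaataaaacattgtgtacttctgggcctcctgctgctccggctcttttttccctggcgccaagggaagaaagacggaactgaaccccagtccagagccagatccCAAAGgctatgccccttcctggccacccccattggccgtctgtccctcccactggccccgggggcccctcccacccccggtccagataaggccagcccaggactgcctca
The Apoa1 window held none of the 5 motifs. Apob held CAAAG at 3 places, Lcat at 1, and Mttp held CAAAG and TGACG once each, both on the opposite strand. Among all 32851 windows of 300 bases in the RefSeq table (250 before and 50 after the start), 53.9% held CAAAG, 20.8% TGACG, 19.6% ACGTG, 16.3% AGGTCA and 7.15% CACGTG. Windows were found for 8 of the 10 members. The Mttp window lies inside the GENCODE gene, whose longest model starts further upstream. These matches describe the letters in these windows and say nothing of binding.

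The members were among the most abundant transcripts of the liver. On the FPKM scale, which is per transcript length and so allows levels of different genes to be compared, Apoe ranked 2 of 24066 symbols, Apoa2 ranked 4, Apoa1 ranked 6 and Apoc1 ranked 7. Over the 36 libraries Apoe had a median of 15130 FPKM (11710 to 29250) and Apoa2 a median of 14120 FPKM (9865 to 22480), so that these neighbours overlapped. Apoa1 followed with a median of 8741 FPKM (6874 to 24260), and Apoc1 with 8229 FPKM (6612 to 17260), again overlapping. Apoc3 came next at a median of 3235 FPKM (2941 to 7272). Apoa5 (median 544.7, range 415.7 to 735.7), Lcat (294.9, 252.1 to 338.4) and Apob (208.4, 125.8 to 228.6) were lower still and did not overlap one another. Apoa4 (78.91, 42.48 to 251) and Mttp (63.9, 31.44 to 80.69) were the lowest and overlapped, and the highest Apoa4 value also exceeded those of Apob. Together the 10 genes made up 7.66% to 13.4% of the summed FPKM of a control library (median 9.01%) and 6.89% to 10.6% of an IH library (median 9.35%).

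Their spread between mice of one group differed by gene. The coefficient of variation over 3 mice had a median over the 12 groups of 2.86% for Apob, 3.64% for Lcat and between 5.57% and 9.73% for Apoa1, Apoa2, Apoa5, Apoc1, Apoc3, Apoe and Mttp. Apoa4 was the most variable member, with a median of 27.6%. In bulk tissue, fewer cells of a type and less RNA per cell cannot be told apart.

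A single library stood apart and touches every member but Lcat at ZT12. In control ZT12 replicate 2 the FPKM values summed to 758113, against 540095 to 579428 in the other 35 libraries. Apoa1 reached 24260 FPKM in it, against 9477 and 9708 FPKM in the other control mice of that time, a ratio of 2.53 to their mean. The ratio was 2.28 for Apoc3, 2.2 for Apoa4, 1.88 for Apoc1, 1.67 for Apoe and 1.41 for Apoa2, close to 1 for Lcat (1.02), and 0.668 for Apob, 0.655 for Apoa5 and 0.558 for Mttp. The 3 members below 1 were the 3 with the longest transcripts. Over all genes that averaged 1 FPKM or more and had a known length, the median log2 ratio fell from 0.60 for transcripts up to 1000 nt to 0.07, -0.38 and -0.58 for those of 1000 to 2000, 2000 to 4000 and over 4000 nt. The 5 leukocyte markers (Ptprc, Cd3e, Cd79a, S100a8 and S100a9) summed to 205.2 FPKM in it and to at most 13.88 FPKM in any other library, and the 7 Kupffer cell markers to 177.8 FPKM against at most 66.2 FPKM. The main results of the members that include this library are therefore given with and without it, and the part of these markers in its difference was not tested.

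**Figure D1:**
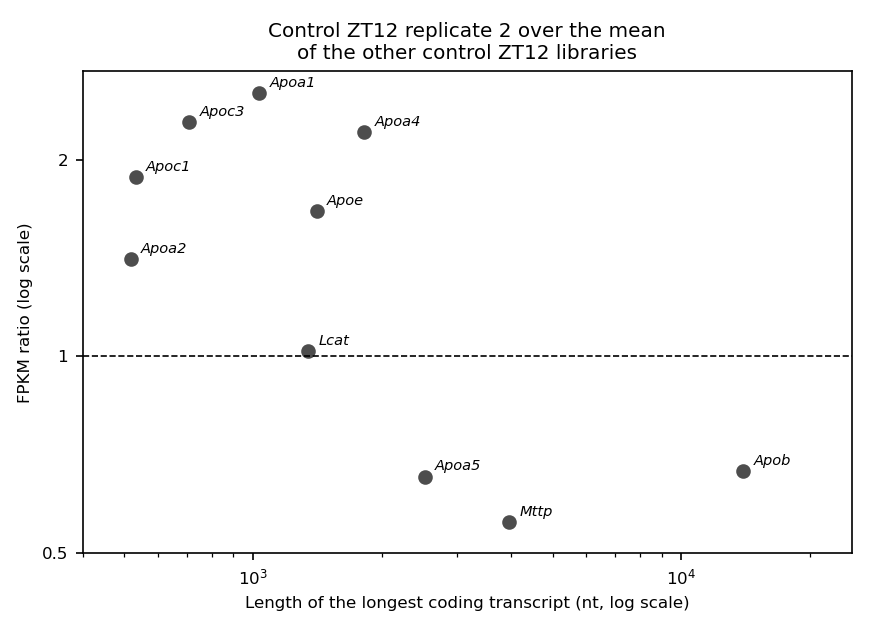
Ratio of the FPKM value in control ZT12 replicate 2 to the mean of the other control ZT12 libraries (log scale) against the length of the longest coding transcript (log scale), 1 point per gene. The 6 genes well above the dashed line at 1 have transcripts of 518 to 1815 nt, Lcat lies near it, and Apoa5, Apob and Mttp lie below it with 2515 to 13934 nt.

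The files held no counts, and the low values of 2 libraries shared a common ratio for only 22.4% to 43.2% of the low genes, so the depth of the libraries is unknown. The 6 hepatocyte markers fixed for this tissue (Alb, Ttr, Cps1, Tat, Serpina1c and Hal) summed to 33270 to 48690 FPKM in control and 35650 to 49860 FPKM in IH, and the 5 pancreatic acinar markers to at most 0.03912 FPKM. Enterocyte markers, relevant because intestine also makes Apoa1, Apoa4, Apob and Mttp, had 4 of 5 genes below a mean of 0.1 FPKM, the exception being Fabp2 at 46.33 FPKM.

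**Figure D2:**
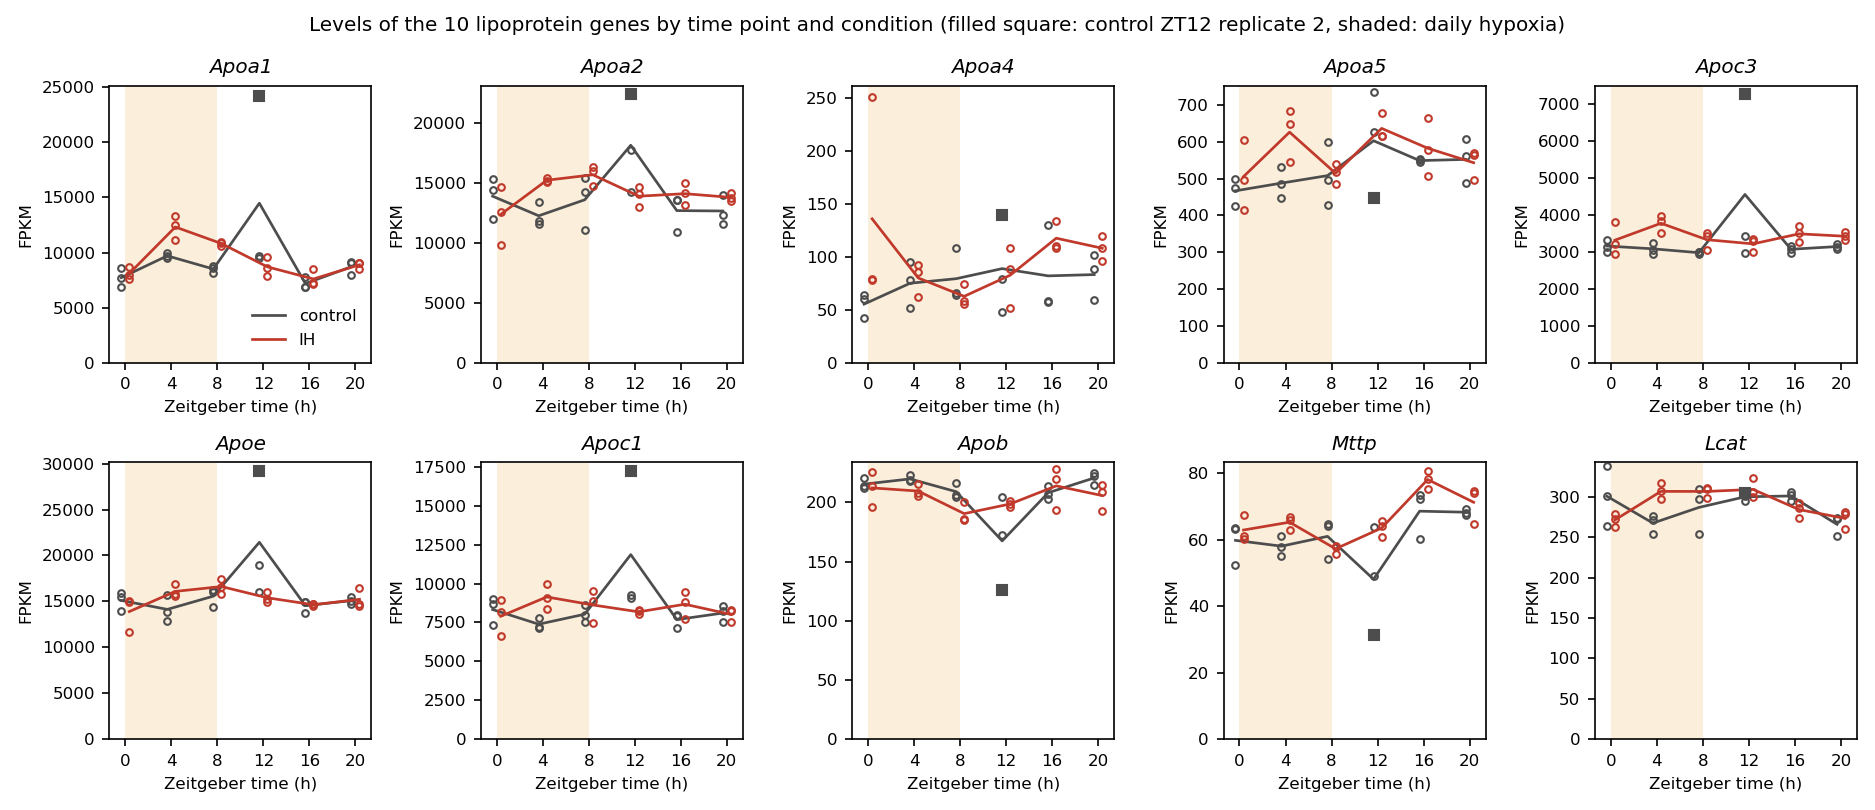
FPKM (linear axis from 0) of the 10 genes against Zeitgeber time, with 1 open circle per mouse and lines through the means of 3 mice, control in grey and IH in red, and the daily hypoxia shaded. Apoa1 in IH lies above every control mouse at ZT4 and ZT8, and the filled square shows control ZT12 replicate 2.

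The first comparison asked whether the members differed in level during the daily hypoxia, over the 12 libraries of ZT4 and ZT8. Apoa1 and Apoc3 were higher in IH and no member was lower, that is 2 of 10 higher and 0 of 10 lower, against 6.05% of all genes tested called higher and 1.93% called lower (limma on log2(FPKM + 1), time point as a factor, Benjamini-Hochberg adjusted p under 0.05 over 13215 genes). The fitted difference was above 0 for 8 of the 10, and its median over the members was 0.171 on the log2 scale, beside 0.039 over all genes tested. The exceptions, Apob and Apoa4, did not pass the test. At an unadjusted P under 0.05 there were 6 of 10 members, beside 27.1% of all genes.

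Apoa1, the main protein of HDL, had 9932, 9484 and 9681 FPKM in control at ZT4 and 11150, 12480 and 13330 FPKM in IH. At ZT8 the values were 8135, 8765 and 8608 FPKM in control and 10830, 10990 and 10630 FPKM in IH. Every IH mouse was thus above every control mouse of both time points, which held for 1.42% of all genes tested and for no other member, and no member had all 6 below, as 0.416% of genes did. The mean rose from 9101 ± 702 to 11570 ± 1083 FPKM (SD, n = 6 each), a difference of 0.34 (SE 0.06, 95% interval 0.22 to 0.47) on the log2 scale with a limma adjusted p of 0.012. Taken singly, the difference was 0.34 at ZT4 and 0.35 at ZT8. Across 11 other settings the difference stayed between 0.26 and 0.34 and the adjusted p between 0.0064 and 0.065, the latter when no filter on low values was applied, where the call was lost.

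Apoa2, the other structural protein of HDL, had 11830, 13410 and 11560 FPKM in control and 15060, 15460 and 15190 FPKM in IH at ZT4, without overlap. At ZT8 the control values of 11120, 15420 and 14270 FPKM overlapped the IH values of 16310, 16030 and 14740 FPKM. The difference over both time points was 0.27 (95% interval 0.08 to 0.45) with a limma adjusted p of 0.073, and the call was not made. With a filter at a mean of 1 FPKM the adjusted p was 0.046 and the call was made, in a range of 0.046 to 0.31 over the settings. Leaving out control ZT8 replicate 2 gave 0.32 with an adjusted p of 0.033, in a range of 0.033 to 0.15 when single libraries were left out.

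Lcat, the enzyme that esterifies cholesterol on HDL, had 254.7, 276.3 and 271.9 FPKM in control and 296.9, 307.2 and 316.7 FPKM in IH at ZT4. At ZT8 it had 254.1, 309.5 and 297.6 FPKM in control and 298.9, 310.1 and 311.6 FPKM in IH. The groups were apart at ZT4 and overlapped at ZT8, where 1 control mouse was far below the rest. The difference over both, 0.15 (95% interval 0.04 to 0.26), missed the threshold with a limma adjusted p of 0.096, and passed it at 0.18 and 0.042 without control ZT8 replicate 2, in a range of 0.042 to 0.19 over libraries left out.

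Apoc3, whose protein slows the clearance of triglyceride-rich particles, had 3053, 3247 and 2941 FPKM in control and 3514, 3844 and 3958 FPKM in IH at ZT4. At ZT8 it had 2985, 2941 and 2999 FPKM in control and 3516, 3422 and 3042 FPKM in IH. The groups did not overlap at either time point, although the lowest IH mouse at ZT8 was below the highest control mouse of ZT4. The mean rose from 3028 ± 115.3 to 3549 ± 325.7 FPKM (SD, n = 6 each), a difference of 0.22 (SE 0.06, 95% interval 0.10 to 0.35) with a limma adjusted p of 0.038. The call was lost in 8 of the 12 fits that left out 1 library (control ZT4 replicates 1 and 3, control ZT8 replicate 1, IH ZT4 replicates 1, 2 and 3, IH ZT8 replicates 1 and 2), with adjusted p up to 0.093. It was also lost with no filter (0.074), median ratio scaling (0.11), the replicate number as a block (0.055) and the removal of length and GC trends (0.075), in a range of 0.025 to 0.11 over the settings.

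Its neighbours in the cluster, Apoa5 and Apoa4, were not called. Apoa5, whose protein lowers plasma triglyceride, had 530.4, 486 and 447.1 FPKM in control and 649.6, 684 and 545.4 FPKM in IH at ZT4, without overlap. At ZT8 its values overlapped, with control from 428.6 to 598.7 FPKM and IH from 484.3 to 539.6 FPKM. The difference over both time points was 0.19 (95% interval -0.02 to 0.40, limma adjusted p = 0.22). Apoa4 overlapped at both time points, from 51.75 to 108.3 FPKM in control and 55.04 to 92.54 FPKM in IH, with a difference of -0.09 (95% interval -0.49 to 0.30, limma adjusted p = 0.77) that turned to 0.04 without control ZT8 replicate 1.

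Apoe and Apoc1, which share a cluster, were not called. Apoc1, an apolipoprotein of VLDL and HDL, had 7204, 7800 and 7164 FPKM in control and 8388, 9047 and 10000 FPKM in IH at ZT4, without overlap, and overlapped at ZT8. Its difference over both was 0.20 (95% interval 0.03 to 0.38) with a limma adjusted p of 0.13. It passed at 0.047 without IH ZT8 replicate 3, in a range of 0.047 to 0.24 over libraries left out. Apoe ranged from 12850 to 16190 FPKM in control and from 15600 to 17440 FPKM in IH over both time points, and its difference of 0.14 (95% interval -0.01 to 0.30, limma adjusted p = 0.21) was within the spread.

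Of the VLDL genes Apob and Mttp neither was called. Apob had 218.8, 217.8 and 223 FPKM in control and 215.8, 207.8 and 205.2 FPKM in IH at ZT4. At ZT8 it had 204.4, 206.5 and 216.4 FPKM in control and 185.9, 185.3 and 200.4 FPKM in IH. All IH mice were below all control mice at each time point, a small difference of -0.10 (95% interval -0.18 to -0.02) with a limma adjusted p of 0.10. Apob was called lower with median ratio scaling (-0.17, adjusted p = 0.027) and quantile normalization (-0.18, adjusted p = 0.033), in a range of 0.027 to 0.14 over the settings. Mttp had 60.93, 57.89 and 55.17 FPKM in control and 66.77, 62.92 and 65.94 FPKM in IH at ZT4, without overlap. At ZT8 the control values of 54.17, 64.09 and 64.59 FPKM surrounded the IH values of 55.69, 57.76 and 58.17 FPKM, and the difference over both time points was 0.04 (95% interval -0.09 to 0.17, limma adjusted p = 0.70).

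**Figure D3:**
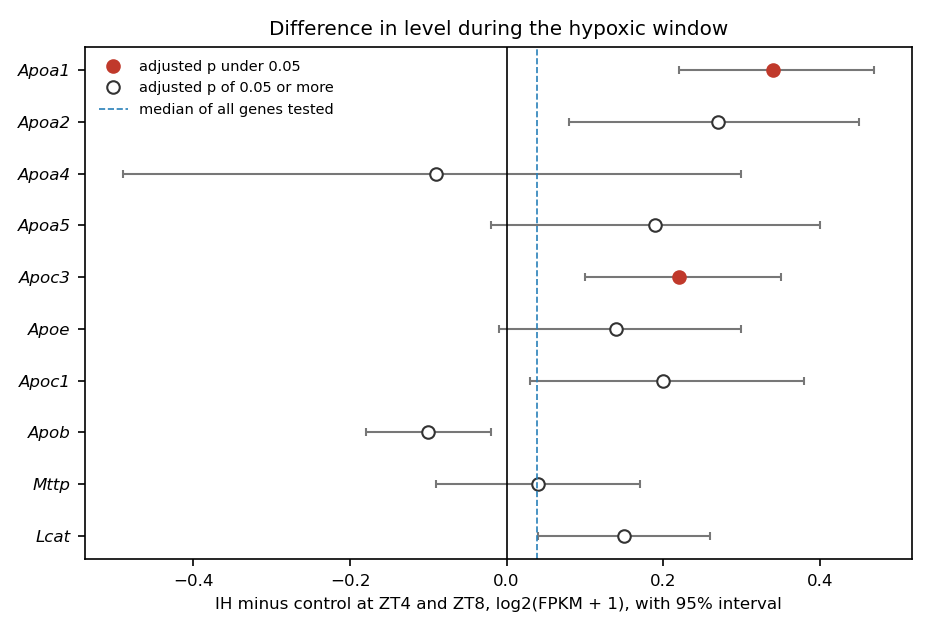
Difference between IH and control at ZT4 and ZT8 for each gene on the log2(FPKM + 1) scale, with its 95% interval from limma over 6 libraries per condition, filled where the adjusted p was under 0.05. Apoa1 (0.34) and Apoc3 (0.22) are filled, Apob and Apoa4 lie left of 0, and the dashed line marks the median of all genes tested at 0.039.

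Other measures moved alongside at these time points. The hepatocyte marker sum was 33270 to 44800 FPKM in control and 43330 to 46540 FPKM in IH, with 0 of 6 markers called. Of the other 9 marker lists 1 held a called gene, Stab1 of the 5 endothelial markers, at 2.824 FPKM in control and 3.514 FPKM in IH (0.24, limma adjusted p = 0.04), named after its value was seen. All genes showed a small trend with transcript length, from a median difference of 0.11 for transcripts up to 1000 nt to 0.03 for those over 4000 nt, and with the trends with length and GC content removed Apoa1 differed by 0.26 and Apoc3 by 0.14. The endothelial markers summed to 29.21 to 40.63 FPKM in control and 35.54 to 42.52 FPKM in IH. The serum amyloid gene Saa1, also named after its value was seen, was not called. It averaged 953.5 FPKM in control and 43.47 FPKM in IH (-2.49, SE 1.1, limma adjusted p = 0.17). Control ZT4 replicates 1 and 3 had 2357 and 2435 FPKM, control ZT8 replicate 1 had 828.4 FPKM, and IH mice at most 72.07 FPKM. Among controls of ZT4 and ZT8, these mice had the lowest Apoa2, Apoe, Apoc1 and Lcat and the highest Apoa4, but neither for the other members. The part of these measures in the result was not tested beyond the values with the trends removed. Scaling changed the sign of 1 member, Mttp, which was at -0.02 with median ratio scaling and -0.03 with quantile normalization.

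The single time points, fitted in 1 model of 12 groups, gave no called member in any of the 60 tests of limma, while 10 had an unadjusted P under 0.05, 7 of them at ZT12, 2 at ZT4 (Apoa5 and Lcat) and 1 at ZT0 (Apoa4). That P was reached by 7.57% of all genes at ZT0, 16.4% at ZT4, 4.74% at ZT8, 24.6% at ZT12, 3.3% at ZT16 and 4.74% at ZT20. The share of all genes called was 0.885% higher and 0.272% lower at ZT4, 0.272% higher and 0.499% lower at ZT12, and at most 0.00757% in either direction at the others. At ZT4 all 3 IH mice were above all 3 control mice for 7 members, Apoa1, Apoa2, Apoa5, Apoc3, Apoc1, Mttp and Lcat, where 26.7% of all genes were, and below for Apob, where 7.79% were. At ZT8 they were above for Apoa1 and Apoc3 (11% of all genes) and below for Apob (7.16%). At ZT16 they were above for Apoc3 and Mttp (10%) and below for Lcat (3.84%), at ZT20 above for Apoc3 (11.8%), at ZT12 below for Apoe and Apoc1 (6.74%), and at ZT0 above for Apoa4 (4.59%). No member lay wholly below the control mice at ZT0 or ZT20, as 6.21% and 4.18% of all genes did. These comparisons use the same mice as the one over ZT4 and ZT8.

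Apoc3 was thus above the control range at ZT4, ZT8, ZT16 and ZT20. At ZT16 its values were 2966, 3070 and 3168 FPKM in control and 3258, 3504 and 3696 FPKM in IH, and at ZT20 they were 3223, 3077 and 3124 FPKM in control and 3322, 3415 and 3525 FPKM in IH. At ZT0 and ZT12 the groups overlapped.

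At ZT12 the fitted differences depended on control ZT12 replicate 2. Apoa1 was at -0.59 with it and -0.15 without it, Apoa2 at -0.36 and -0.20, Apoc3 at -0.39 and 0.01, Apoe at -0.43 and -0.18, Apoc1 at -0.47 and -0.16, Apob at 0.27 and 0.08, and Mttp at 0.45 and 0.18. Those 7 members had an unadjusted P under 0.05 at ZT12 with it, and 0 had without it. Because all groups share 1 estimate of the spread, leaving it out also changed other time points: Apoa1 (0.34, limma adjusted p = 0.04) and Apoc3 (0.29, limma adjusted p = 0.044) were then called higher at ZT4, where 6.05% of all genes were called in either direction in place of 1.16%. Leaving out one of the other control ZT12 mice instead gave calls at ZT12 for 4 members (without replicate 1, where 15.6% of all genes were called) and 7 members (without replicate 3, where 23.6% were), groups in which replicate 2 makes up 1 of 2 libraries.

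Over all 6 time points no member differed in level, while 0.303% of all genes were called higher and 0.053% lower in IH. The difference was above 0 for 8 of 10 members, with a median of 0.047 beside 0.025 over all genes. An unadjusted P under 0.05 was reached by Mttp alone, beside 10.8% of all genes, from a mean of 60.58 ± 9.868 FPKM in control to 66.32 ± 7.382 FPKM in IH (SD, n = 18 each), or 0.14 (95% interval 0.02 to 0.26, limma adjusted p = 0.37), with the IH mean higher at 5 of 6 time points. Without control ZT12 replicate 2 the Mttp difference was 0.09 (95% interval 0.02 to 0.17, limma adjusted p = 0.27). Mttp, Apoa1, Apoc3 and Apoa4 then reached an unadjusted P under 0.05 (4 of 10). The share of all genes reaching it without the library was not computed, so this count has no background. Without that library Apoc3 was called at 0.14 (95% interval 0.07 to 0.22, limma adjusted p = 0.045), against 0.07 (limma adjusted p = 0.73) with it, Apoa1 was at 0.13 (limma adjusted p = 0.22) and Apoa4 at 0.38 (limma adjusted p = 0.29). With the library left out, 1.07% of all genes were called higher and 0.114% lower.

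The next comparison asked which members followed a 24-h rhythm in each condition, by a limma moderated F test of a cosine over the 18 libraries of a condition at a nominal P of 0.01. In control 0 of 10 members were called, where 20% of all genes were. In IH, 3 of 10 were called, Apoa1, Lcat and Mttp, where 39.9% of all genes were. All 3 were called in IH and not in control, as were 24.4% of all genes. A call in one condition alone does not show that the rhythms differ.

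Apoa1 in IH had its lowest group mean at ZT16 (7596 FPKM) and its highest at ZT4 (12320 FPKM). The 3 mice at ZT16 had 7225, 8461 and 7102 FPKM, all below the 6 mice at ZT4 and ZT8. Its fitted cosine had an amplitude of 0.29 (SE 0.06) on the log2 scale, a peak-to-trough fold of 1.49 and a peak at 5.5 h (SE 0.8 h), with P = 0.00072 (n = 18). In control the amplitude was 0.21 (SE 0.13, limma adjusted p = 0.43) with control ZT12 replicate 2 and 0.12 (SE 0.06, limma adjusted p = 0.29) without it, and the peak then fell at 6.3 h (SE 2 h). The call in IH was lost with quantile normalization (P = 0.2), which gives all libraries the same distribution of values, and with the spread estimated over both conditions (P = 0.026, n = 18 each).

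Mttp ran nearly opposite, with its lowest IH group mean at ZT8 (57.21 FPKM) and its highest at ZT16 (78.04 FPKM). In IH its values were 80.69, 75.21 and 78.21 FPKM at ZT16, all above the other 15 libraries. The amplitude was 0.16 (SE 0.04), the peak-to-trough fold 1.25 and the peak at 18.1 h (SE 0.8 h), with P = 0.0012 (n = 18). In control the amplitude was 0.16 (SE 0.08, limma adjusted p = 0.35) with a peak at 20.9 h (SE 2 h), and without ZT12 replicate 2 it was 0.11 (SE 0.05, limma adjusted p = 0.16) with a peak at 18.1 h (SE 1.6 h). The IH call was lost with JTK_Cycle, a rank test of rhythm (P = 0.021), and with the shared spread (P = 0.062, n = 18).

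Lcat in IH was lowest at ZT0 (272.5, 279.5 and 262.7 FPKM) and highest at ZT12 (323.2, 305.6 and 299.4 FPKM). Its amplitude was small, 0.11 (SE 0.02), with a peak-to-trough fold of 1.16 and a peak at 8.8 h (SE 0.8 h, P = 0.00082, n = 18). In control the amplitude was 0.05 (SE 0.05, limma adjusted p = 0.67) with control ZT12 replicate 2 and 0.05 (SE 0.04, limma adjusted p = 0.69) without it, and at ZT0 the control mice spread from 263.8 to 338.4 FPKM. The IH call was lost with the shared spread (P = 0.014, n = 18).

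The other members were not called in either condition. In IH their P ran from 0.018 for Apoa4 to 0.62 for Apoc3 (n = 18), whose amplitude of 0.04 (SE 0.04) was the lowest of the 10. In control without ZT12 replicate 2, where 27.1% of all genes were called, still 0 of 10 were. The lowest limma P was 0.015 (adjusted p = 0.05) for Apoa5, with an amplitude of 0.19 (SE 0.06) and a peak at 13.8 h (SE 1.1 h). Apob followed at a limma P of 0.048 (adjusted p = 0.11), with an amplitude of 0.08 (SE 0.03).

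**Figure D4:**
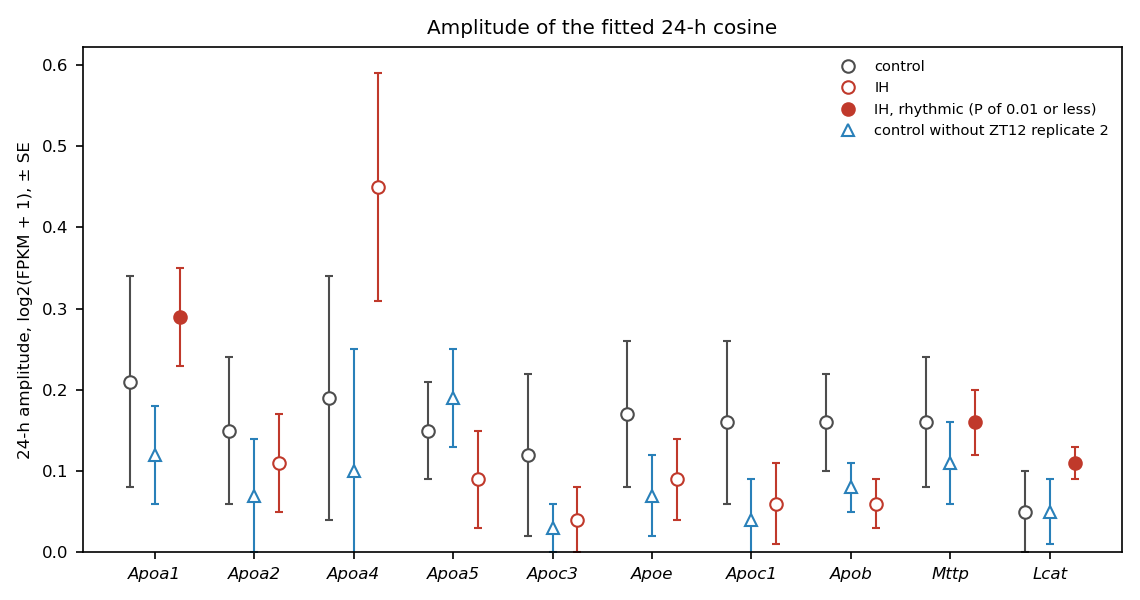
Amplitude of the fitted 24-h cosine on the log2(FPKM + 1) scale for each gene, with bars of 1 SE cut at 0, in control, in control without ZT12 replicate 2 and in IH, filled where the rhythm was called. The filled points are Apoa1 (0.29), Mttp (0.16) and Lcat (0.11) in IH, and Apoa4 in IH is the highest open point at 0.45.

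The difference between the rhythms was tested directly, by an interaction term between condition and cosine in a fit of all 36 libraries. It was called for 0 of 10 members and for 0 of 13215 genes (0%) by limma. No member had an unadjusted P under 0.05, where 4.91% of all genes had. The lowest was that of Apoa4 (P = 0.057, n = 18 each, limma adjusted p = 0.92), and for Apoa1, Mttp and Lcat the limma adjusted p was 0.92, 0.93 and 0.92. Without control ZT12 replicate 2 they were 0.87, 0.96 and 0.86. A difference in rhythm between the conditions was thus not shown for any member, and neither was its absence.

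Apoa4, which encodes an apolipoprotein of triglyceride-rich particles and HDL, was the member with the widest excursions. In IH at ZT0 its values were 78.84, 251 and 77.8 FPKM, against 63.46, 59.79 and 42.48 FPKM in control. All IH mice were above all control mice, but replicate 2 was 3.2 times the mean of the other IH mice. The difference was 1.07 (SE 0.39, limma adjusted p = 0.46), and 0.52 without that mouse. Over all IH mice the rhythm had a nominal P of 0.018 (n = 18), and without that mouse it passed the threshold of 0.01, with a limma P of 0.0023, an amplitude of 0.39 (SE 0.10) and a peak at 18.5 h (SE 0.9 h). In IH all 3 mice at ZT16 (133.9, 108.3 and 110.5 FPKM) were above all 3 at ZT8 (74.16, 58.65 and 55.04 FPKM).

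Apoa4 was also set beside serum amyloid A1, Saa1, an acute-phase apolipoprotein of HDL. Saa1 was above 10000 FPKM in 3 libraries (22870 in IH ZT0 replicate 2, 20550 in control ZT12 replicate 2 and 12910 in control ZT16 replicate 3), while the other 33 had a median of 72.07 and at most 2470 FPKM. In each of the 3, Apoa4 was the highest of its group: 251 FPKM against 77.8 and 78.84, 139.6 against 47.84 and 78.98, and 129.9 against 57.38 and 58.62. Lcat was also the highest of its group in each, by less: 279.5 FPKM against 262.7 and 272.5, 304.9 against 294.5 and 301.2, and 306.3 against 295.3 and 302.2. No other member was the highest in all 3. In IH ZT0 replicate 2, Apoa1, Apoa2, Apoa5, Apoc3, Apoe and Apoc1 were each the lowest of their group, with Apoa2 at 9865 FPKM against 12570 and 14710, and in control ZT16 replicate 3 the ratio to the other mice lay between 0.807 and 1.13 for all members but Apoa4. The leukocyte markers summed to 13.88, 205.2 and 11.81 FPKM in these 3 libraries and to a median of 2.055 FPKM (at most 7.17) in the others, and their part in the Apoa4 values was not tested. These libraries were picked out by their Saa1 value after it was measured, so the values are a description.

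Members varied together in part. Over 11 group means, leaving out control ZT12, Pearson's r on the log2 scale was 0.88 between Apoa2 and Apoe, 0.86 between Apoa2 and Apoc1, 0.76 between Apoc3 and Apoc1, and 0.70 between the neighbours Apoe and Apoc1. For Apob r was -0.66 to Apoa2 and -0.64 to Apoe, but -0.33 to Apoc1 and -0.19 to Apoc3. With control ZT12 included these were larger in size, at 0.92, 0.92, 0.90 and 0.92, and for Apob at -0.85, -0.91, -0.83 and -0.71. Other pairs over the 11 group means were as large, with 0.71 between Apoa4 and Mttp, 0.69 between Apoa2 and Lcat and -0.65 between Apob and Lcat. Within the Apoa1 cluster r over the 11 group means ran from -0.23 between Apoa1 and Apoa4 to 0.55 between Apoc3 and Apoa5. The points share libraries and their composition, and no test was made. The genes most like the rhythmic members over the 12 group means, among those averaging 1 FPKM or more, were Serpinb6a (r = 0.91), BC089597 (0.90) and Dnase2a (0.90) for Apoa1, Reep3 (0.94), Kpna3 (0.93) and Eno1 (0.93) for Mttp, and Zdhhc4 (0.87), Trim3 (0.85) and Gulo (0.84) for Lcat. Over the 11 group means without control ZT12 these were 0.88, 0.85 and 0.83 for Apoa1, 0.88, 0.84 and 0.91 for Mttp, and 0.87, 0.85 and 0.87 for Lcat.

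Around the members, 63 further genes of lipoprotein metabolism were examined in 6 lists, of which 59 were tested. The same cosine test called 12 in control, 25 in IH and 9 in both, that is 20.3% and 42.4% of those tested, beside 20% and 39.9% of all genes. Without control ZT12 replicate 2, 16 of the 59 were called in control, where 27.1% of all genes were. Of these 16, 6 were in VLDL assembly, 4 in receptors and clearance and 4 among transcription factors. At ZT4 and ZT8, 6 of the 59 were higher and 4 lower in IH (limma, adjusted p under 0.05), beside 6.05% and 1.93% of all genes. Over all time points none differed at the same threshold. The median difference of the 59 at ZT4 and ZT8 was 0.01, below that of all genes.

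VLDL assembly and secretion, the list with the most genes tested, held the most calls. Of its 15 genes the rhythm test called 4 in control (26.7%) and 10 in IH (66.7%), beside 20% and 39.9% of all genes. In receptors and clearance the shares were 37.5% and 62.5%. At ZT4 and ZT8, 3 of the 15 were higher and 1 lower, beside 6.05% and 1.93% of all genes. Dgat2, which makes triglyceride for VLDL, went from 182.8 to 243.9 FPKM (0.43, SE 0.08, limma adjusted p = 0.014), while Apobec1, the enzyme that edits apolipoprotein B messenger RNA, fell from 7.101 to 4.162 FPKM (-0.58, SE 0.12, limma adjusted p = 0.021). Pla2g12b, needed for the lipidation of VLDL, was rhythmic in both conditions, with peaks at 0.5 h in control (P = 0.00011) and 23.9 h in IH (P = 5.4e-07, n = 18 each), and Soat2, which esterifies cholesterol, was so too, with peaks at 6.3 h in control (P = 0.00039) and 5.3 h in IH (P = 1.2e-07, n = 18 each).

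Among the 10 other apolipoproteins tested, 2 were higher at ZT4 and ZT8 and none lower. Apoh, beta-2-glycoprotein I, went from 1250 to 1539 FPKM (0.30, SE 0.07, limma adjusted p = 0.024). The other was Apoc4 of the Apoe cluster, named here after its value was seen, from 1256 to 1450 FPKM (0.21, SE 0.05, limma adjusted p = 0.037). A rhythm was called for 1 of the 10 in control and for 2 in IH.

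Of 8 genes of HDL transport and remodelling, 1 was lower at ZT4 and ZT8 and none higher. This was Abca1, which loads lipid onto apolipoprotein A-I, also named after its value was seen, from 10.32 to 8.787 FPKM (-0.20, SE 0.05, limma adjusted p = 0.034), at the time points where Apoa1 was higher. Of 8 genes of receptors and clearance, 2 were lower, and a rhythm was called for 3 in control, which were all called in IH, and for 5 in IH. Sort1, a sorting receptor for apolipoprotein B, went from 3.275 to 2.722 FPKM (-0.20, SE 0.04, limma adjusted p = 0.023), and Sdc1, a heparan sulfate proteoglycan that binds remnants, from 56.97 to 47.85 FPKM (-0.24, SE 0.06, limma adjusted p = 0.028). Sdc1 was rhythmic in both conditions, with peaks at 20.3 h in control (P = 1e-04) and 19.2 h in IH (P = 3e-05, n = 18 each).

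Of 6 genes of lipase regulation, 1 was higher, Gpld1, which encodes an HDL-associated phospholipase, from 49.3 to 56.84 FPKM (0.20, SE 0.04, limma adjusted p = 0.025). Of 12 transcription factors known to act on apolipoprotein genes, none differed at ZT4 and ZT8, and a rhythm was called for 3 in control and for 4 in IH. The strongest rhythm was that of the clock gene Nr1d1, with peaks at 7.3 h in control (P = 1.9e-09) and 6.5 h in IH (P = 5.4e-13, n = 18 each) and amplitudes of 2.59 and 2.82, many times those of the members.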

How the data were processed

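Liver RNA of 36 mice was profiled by strand-specific, polyadenylated RNA sequencing. The authors aligned the reads to mm10 and estimated expression with Cufflinks, and the deposited values are FPKM, scaled per transcript length and to the fragments of the library, 1 value per gene and library. The submitters' processing notes name TopHat2 2.1.1 and Cufflinks 2.2.1. The annotation and any scaling between libraries are not given in the sources used here. Fragments shared by overlapping or similar genes are divided by Cufflinks, and FPKM of 1 gene depends on the composition of the whole library.

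Each condition had a table of its own, with identical column names. Time point and replicate were taken from the column names, and condition from the names of the tables. The shapes over time of 4 genes (Ldha, Fasn, Gys2 and Cox6a1) were compared with the published plots and matched that assignment. Of 24346 symbols, 280 on more than 1 row were left out. Values were analysed as log2(FPKM + 1), with a pseudocount of 1, so that fold changes of low genes are understated, for 13215 genes averaging 0.1 FPKM or more. Tests were made in R 4.3.3 with limma 3.58.1 (intensity trend): a moderated F test of a 24-h cosine per condition (nominal P of 0.01), the interaction of condition and cosine, and condition with time point as a factor over all time points or ZT4 and ZT8, and contrasts per time point in a fit of 12 groups (Benjamini-Hochberg adjusted p of 0.05 over all genes, within each time point for the last). A step on simulated data of 13215 genes recovered 99.5% of 200 genes given a cosine of size 1 in control and called 1.04% of 12615 unchanged genes. For the ZT4 and ZT8 test it recovered 95.5% of 200 genes with a log2 change of 1 and called 0.151%. Both sizes exceed the differences of the members at ZT4 and ZT8 (at most 0.34) and their amplitudes (at most 0.45). Recovery of changes as small as theirs was not measured. The simulated noise was drawn separately for each gene and library, with no library standing apart.

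The members, gene lists, motifs and markers were chosen with earlier results of these data known. All members are named. Over all the other lists at once, the genes with the smallest P in each direction of a comparison are named, at most 3, besides those said to be named after their values were seen. The genes most like a rhythmic member are the 3 with the highest correlation. Replicate numbers were not used to pair the mice in the main tests. The residuals of 18 same-numbered pairs correlated by 0.06 on average (-0.2 to 0.31), with 7 over 0.1. Differently numbered pairs were not compared, so these values cannot decide whether the numbers mark pairs. Gene positions came from GENCODE M21 (23072 symbols matched). Figures used Python 3.11.15 and matplotlib 3.10.9. Alternatives were other pseudocounts, filters, scalings, rhythm tests and thresholds, a replicate block, and leaving out libraries.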

Additional observations from a re-analysis of the deposited data

How the results depend on the processing

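Of 4710 recomputed results of single members, 4655 stayed on their side of the threshold, 18 lost a call and 37 gained one. Most were never called: only the 3 rhythms in IH and the 2 differences at ZT4 and ZT8 could lose a call. Of the losses, 13 were of differences at ZT4 and ZT8 and 5 of rhythms in IH. No called difference changed sign, and 92 uncalled ones did. Of the counts of members called, the 2 at ZT4 and ZT8 (beside 7.98% of all genes) became 0 with no filter (beside 3.29%). They became 1, with Apoc3 lost, with length and GC trends removed (beside 6.72%) and with the replicate number as a block (beside 6.82%). They became 3 with a filter at a mean of 1 FPKM (Apoa2 added, beside 11.3%). The count was also 3 with quantile normalization (Apob added, beside 7.21%) and at a nominal P of 0.01 (Apoa2 added, beside 12.4%). The replicate block changed no other call. The 0 rhythmic in control became 1 with median ratio scaling (Apoa5, beside 22.1% of all genes) and with JTK_Cycle (Apob, beside 17%). It was also 1 with a spread shared by both conditions (Apob, beside 28.5%) and with length and GC trends removed (Apoa5, beside 23.5%). The 3 rhythmic in IH became 0 with the shared spread (beside 31.5%). That spread includes control ZT12 replicate 2, and the fit was not repeated without that library. The 3 became 2 with quantile normalization (Apoa1 lost, beside 39.1%) and with JTK_Cycle (Mttp lost, beside 30.5%). They became 4, with Apoa4 added, at an adjusted P of 0.05 (beside 47.9%) and without the libraries with Saa1 above 10000 FPKM (beside 42.4%). The 0 at single time points became 1 with quantile normalization (Mttp at ZT12, beside 1.62% of all genes). They became 4 at a nominal P of 0.01 (Apoa1, Apoe, Apoc1 and Mttp at ZT12, beside 9.6%). Without the 3 libraries with Saa1 above 10000 FPKM they became 3 (Apoa1, Apoc3 and Apoc1 at ZT4, beside 10.2%). There the 0 over all time points became 1 (Apoc3, beside 1.38%). Leaving out 1 library gave 1 to 4 at ZT4 and ZT8 (4 without control ZT8 replicate 2, beside 10.2%). It gave 0 to 7 at single time points (7 without control ZT12 replicate 3, beside 23.6% at ZT12). Over all time points it gave 0 to 1 (1 without control ZT12 replicate 2, beside 1.19%). Rhythmic in IH were 3 to 4 (4 without IH ZT0 replicate 2, which added Apoa4, beside 42.4%). For rhythms in control and for the difference in rhythm the count was 0 throughout. Beyond fewer or more genes and libraries tested, the cause was not tested. The removal of length and GC trends and the summing of repeated symbols were chosen after seeing the data.

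Each group held 3 mice, so single time points rest on few values, and the depth of the libraries is unknown. RNA levels say nothing of secreted protein or plasma lipid. Several comparisons share the same control mice and are not independent. The rhythm tests rest on 6 time points of 1 day, and a cosine describes a single peak only. FPKM is relative to the library, so a change in total RNA could not be seen.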
